A study of Brassica napus with 24 samples.

Results

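The 200 probes described here were the transcripts with the steadiest level across 4 tissues (organs) of mock-treated rapeseed (*Brassica napus*). They were selected on measured values of these arrays. A probe qualified when its mean log2 signal in the authors' table was at least 10 in each of the 4 mock-treated tissues, which 15539 of the 43603 probes did. The qualifying probes were ranked by the mock score, the highest minus the lowest of the 4 mock means, and the 200 with the smallest score were taken. The question was whether MES moved them in any tissue.

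MES is monosulfuron ester sodium, a sulfonylurea that inhibits acetolactate synthase, the enzyme at the start of branched-chain amino acid synthesis. It is used as a chemical hybridization agent, which makes plants male sterile. Field-grown plants of the cultivar Zhongshuang No. 9 were sprayed once they were bolting. The MES-treated group received 0.1 μg/mL MES, with DMF at 50 ppm and Tween 80 at 5 ppm, at about 15 mL per plant. The mock-treated group received the same DMF and Tween 80 without MES. Leaves of the main inflorescence (Ls), small buds shorter than 1 mm (SBs), anthers of middle buds of 1 mm to 3 mm (An-MBs) and anthers of large buds longer than 3 mm (An-LBs) were collected from both groups. Each of the 8 groups had 3 biological replicates, and each replicate was pooled from 20 rows of plants, so single plants were not measured.

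Transcripts with a steady level are often called housekeeping transcripts, since many of them serve functions that every cell needs, such as translation, protein turnover, respiration and the cytoskeleton. They serve as internal references in RT-qPCR, where the level of another transcript is read relative to them. A reference is useful only if it keeps its level in the tissues and under the treatment that are compared, and a transcript that is level across development need not be level after a chemical treatment. Young anthers and mature pollen carry very different transcript populations, so that few transcripts are level from leaf to late anther. On a microarray the level of a transcript is read relative to the other transcripts of the same array.

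The 24 arrays were hybridized with 1 sample each. Their median signal before normalization ran from 377.5 to 1208, and Feature Extraction marked 73.0% to 81.9% of an array's probes as well above background. Precision is limited by having 3 arrays in each group. Photosynthesis probes drawn by the study from these arrays, a list of 15, had a mean log2 signal of 15.4 to 15.7 on the mock Ls arrays and 10.6 to 10.9 on the mock An-LBs arrays. A list of 5 pollen probes, also drawn from these arrays, lay between 16.9 and 17.1 in mock An-LBs, between 6.7 and 8.6 in MES An-LBs and at no more than 5.4 on any array of Ls or SBs. In An-MBs the pollen list lay between 12.7 and 14.7 in mock plants and between 3.39 and 3.92 after MES, the latter below its level in MES Ls, 4.31 to 4.83. Both lists thus followed the labelled tissues in mock plants, the pollen list did not mark the anther in MES An-MBs, and no such list was at hand for SBs. Mock samples were on slides 1 to 3 and MES samples on slides 4 to 6, and no slide held both. On these slides Ls was always at array position 4, SBs at 3, An-MBs at 2 and An-LBs at 1. An effect of MES therefore cannot be told apart from one of the slides, nor an effect of tissue from one of position. The exception to this layout was MES An-LBs replicate 2, which was on slide 7 and was scanned alone in scan session 3 with another scanner model. The mock replicates 1 were scanned in session 1 and the other 19 arrays in session 2. MES An-MBs replicate 2 also stood apart for the members. Of the 200 members, 56 had their lowest value of all 24 arrays on it and 23 their highest. Its median signal before normalization was 383.9, but that of MES Ls replicate 1 was lower, at 377.5. On MES Ls replicate 1, 10 members lay more than 1 on the log2 scale from their mean over the mock arrays, against 33 on MES An-MBs replicate 2.

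All 200 members were well above background on all 24 arrays, and none was saturated on any array. No filter on low values therefore removed a member. They carried 193 different transcript identifiers. None of these had a gene name in the tables at hand, so members are named by their probe and by the expressed sequence that the array files pair with it, and no function is given. Their mean normalized log2 signals in mock plants ran from 10.2 to 16.4 with a median of 12.5. The rule set the lower end, since it admitted no probe with a mock mean below 10, and steadiness among weaker signals was not examined.

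The mock scores of the members ran from 0.0264 to 0.276 with a median of 0.210, against a median of 1.33 over the qualifying probes. These values chose the members and are a description. The limit fell within a dense series of scores. The last members inside were A_46_P284513 with a score of 0.2753 and A_46_P220274 with 0.2755, and the first probes outside were A_46_P257404 with 0.2756 and A_46_P086306 with 0.2762.

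The 5 members with the smallest mock scores were A_46_P181779 (TA35560_3708), A_46_P033941 (CX190601), A_46_P274063 (EE469010), A_46_P276423 (EE472022) and A_46_P159474 (TA28636_3708). For A_46_P181779, the mock means of normalized log2 signal were 10.44 in An-LBs, 10.46 in An-MBs, 10.43 in SBs and 10.46 in Ls, with SDs between 0.0331 and 0.179 (n = 3). The SD among its replicates was thus larger than its mock score in every tissue. This held for the other 4 in every tissue as well, apart from An-MBs of A_46_P159474, so the order among these 5 lay within replicate error. Over the 200 members the median SD of 3 replicates was 0.172 in the mock groups and 0.276 in the MES groups, beside 0.217 and 0.319 over the qualifying probes.

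In MES-treated plants 185 of the 200 members were not called in any tissue, and 15 were called in at least 1. A member was called changed in a tissue at a Benjamini-Hochberg adjusted p under 0.05 in limma, over all probes tested, and a change of at least 2-fold. In Ls 2 of the 200 members changed, and both were higher. In SBs 1 changed, and it was lower. In An-MBs 2 changed, both higher, and in An-LBs 14 changed, 11 higher and 3 lower. Of all probes tested, 29.2% were called in An-LBs, 7.1% in An-MBs, 4.13% in SBs and 4.82% in Ls. By direction, the backgrounds were 17.3% higher and 11.9% lower in An-LBs, 4.24% higher in An-MBs, 2.32% lower in SBs and 2.52% higher in Ls. Among the qualifying probes, which had comparable signal, the shares called were 20.3% in An-LBs, 4.13% in An-MBs, 1.96% in SBs and 2.99% in Ls. The members' shares were 7% in An-LBs, 1% in An-MBs, 0.5% in SBs and 1% in Ls, each below both backgrounds. The mock arrays of these comparisons are those the members were chosen on, so a low share is not independent of the choice.

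**Figure D1:**
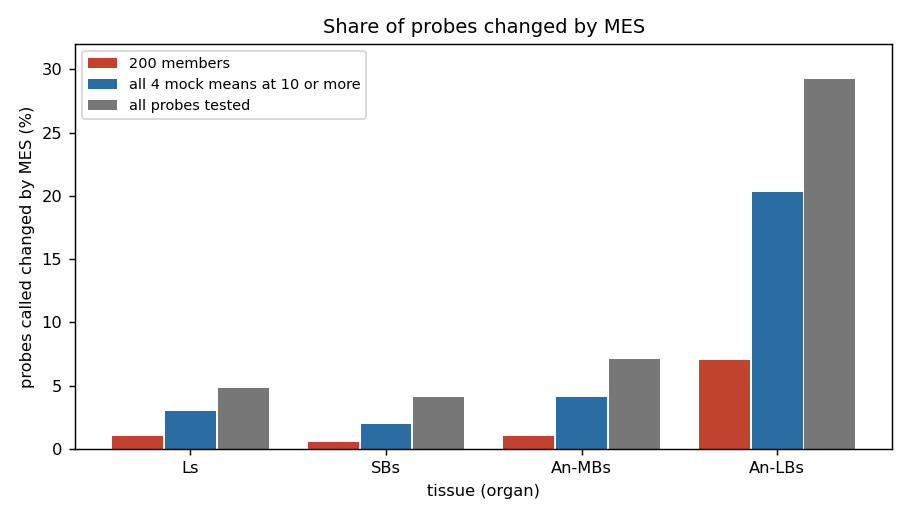
Percentage of probes called changed by MES in each tissue (limma, adjusted p under 0.05 and at least 2-fold), for the 200 members, for the probes with all 4 mock means at 10 or more, and for all probes tested. The members had the lowest bar in each tissue, and the bars of all 3 sets were highest in An-LBs, at 7%, 20.3% and 29.2%.

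The 15 members changed in at least 1 tissue were 7.5% of the list. Over all probes 34.1% changed in at least 1 tissue, and over the qualifying probes 24%. Of the 15, 12 changed in 1 tissue, 2 in 2 tissues and 1 in 3. The background for at least 2 tissues was 7.02%, against 3 members. The fold threshold held down the count in An-LBs, where 42 members (21%) passed the adjusted p alone, beside 42.3% of all probes and 39.2% of the qualifying probes. With 3 arrays per group, values of MES and mock plants did not overlap for 85 members in An-LBs, 63 in An-MBs, 43 in SBs and 63 in Ls. The same was true of 56.3%, 32.4%, 28.4% and 37.5% of all probes tested, in that order of tissues.

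The size of the shifts was read from the log2 changes, the MES mean minus the mock mean. Their median over the members was 0.06 in An-LBs, -0.10 in An-MBs, 0.01 in SBs and -0.04 in Ls, beside 0.24, -0.04, 0.05 and -0.05 over all probes tested. A change smaller than 0.5 on the log2 scale was seen for 72.5% of the members in An-LBs, 78% in An-MBs, 91.5% in SBs and 83.5% in Ls. Over all probes these shares were 39.6%, 54.6%, 72.3% and 54.7%, in the same order. Over the qualifying probes, which had comparable signal, they were 50.1%, 63.9%, 82.6% and 65%. Members thus moved least often by this amount in SBs and most often in An-LBs. The differences between the tissues in these shares were not tested. The mock means in these changes chose the members, so a high share of small changes is not independent of the choice. Scaling each array to its 75th percentile in place of quantiles moved the median of all probes in An-LBs from 0.24 to 0.14 and that of the members from 0.06 to 0.02. Under that scaling 7 members rose and 3 fell in An-LBs. RNA was taken from whole organs, so fewer cells of a type and less RNA per cell cannot be told apart. In An-LBs the pollen list named above was far lower after MES and the mean of the photosynthesis list was higher, at 12.03 to 12.40 against 10.6 to 10.9 in mock plants. Of the photosynthesis list, A_46_P368430 fell there (log2 change -1.07, adjusted p = 0.00353, limma). A_46_P202399, A_46_P333950 and A_46_P178359 were not called, and the others were called higher. In An-MBs the pollen list was lower after MES as well, and the photosynthesis list lay at 12.15 to 12.36 against 11.40 to 11.82. The probes of both lists were selected by the study as changed in these samples, so that these shifts are no independent evidence. The part of these shifts in the members' changes was not tested.

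**Figure D2:**
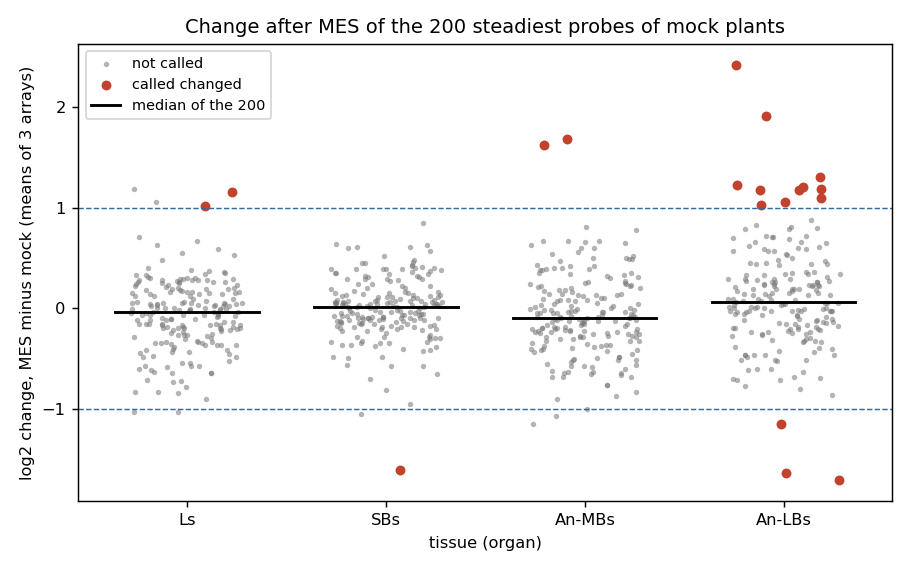
Log2 change (MES mean minus mock mean, 3 arrays each) of the 200 members in each tissue. Each point is a member, red points were called changed, black lines are medians and dashed lines mark 2-fold. The points lie closest to 0 in SBs, and 14 red points stand out in An-LBs, 11 above and 3 below 0.

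The member that changed in most tissues was A_46_P277808 (EE473552), which rose in 3. In Ls its normalized log2 signals were 15.30, 15.55 and 15.39 in mock plants and 16.66, 16.43 and 16.19 in MES-treated plants. In An-MBs they were 15.37, 15.80 and 15.42 in mock plants and 16.84, 17.90 and 16.91 after MES. Mock and MES values did not overlap in either tissue. In An-LBs the mock values were 15.28, 15.48 and 15.20 and the MES values 17.08, 17.20 and 17.42, the widest separation for this probe. The rise was 2.02-fold in Ls (adjusted p = 0.0433), 3.22-fold in An-MBs (adjusted p = 0.0406) and 3.77-fold in An-LBs (adjusted p = 0.00048, limma). In SBs the values overlapped, at 15.46 to 15.54 in mock plants and 15.41 to 16.22 after MES. Its rank by mock score was 100.

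The largest rise of a member was that of A_46_P274378 (TA28809_3708), of rank 151. In An-LBs the 3 mock arrays gave 13.76, 13.73 and 13.74 and the 3 MES arrays 16.24, 16.09 and 16.17, a 5.36-fold rise (log2 change 2.42, SE 0.140, adjusted p = 7.64e-05, limma). In An-MBs the mock values were 14.08, 13.75 and 14.14 and the MES values 15.85, 15.26 and 15.74, a 3.09-fold rise (adjusted p = 0.0175, limma). Both anther stages were therefore separated from mock without overlap. In Ls 2 of the MES arrays were high, at 15.66 and 15.50, and the third lay at 13.89, within the mock range of 13.60 to 14.06. That change was not called (log2 change 1.18, adjusted p = 0.173, limma).

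A_46_P269958 (EE463260) rose in Ls and An-LBs. The mock values in Ls were 11.55, 11.37 and 11.52 and the MES values 12.75, 12.22 and 12.95, a 2.23-fold rise (adjusted p = 0.048, limma). In An-LBs the mock values were 11.17, 11.56 and 11.52 and the MES values 12.81, 12.73 and 12.61, a 2.47-fold rise (adjusted p = 0.00222, limma). Neither tissue showed overlap. In An-MBs 2 of the MES values, 12.52 and 12.09, were above the mock values, and the one of replicate 2 was 11.19, at the mock level.

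The calls in Ls and An-MBs were lost when single arrays were left out. With replicate number as a block, the count in Ls was 0 by limma, with 22 members at an unadjusted p under 0.05, beside 30.9% of all probes. Replicates of Ls with the same number deviated together, with correlations of 0.145, 0.252 and 0.429 between the deviations of the mock and MES arrays. Leaving out any 1 of the mock Ls arrays or MES Ls replicate 1 also gave 0 (limma, 13 to 17 members at an unadjusted p under 0.05, beside 19% to 22.9% of all probes), and leaving out MES Ls replicate 2 or 3 gave 4 and 5. In An-MBs the count was 0 without any 1 of the 3 mock arrays or of MES replicates 1 and 3 (limma, 10 to 15 members at an unadjusted p under 0.05, beside 14.8% to 20.8% of all probes), and 3 without MES replicate 2. In An-LBs it stayed between 12 and 15 whichever of the 6 arrays was left out. Within scan session 2, which left out the mock replicates 1 and MES An-LBs replicate 2, the counts were 9 in An-LBs, 0 in An-MBs, 0 in SBs and 0 in Ls by limma. In the same order, 31, 10, 12 and 13 members had an unadjusted p under 0.05, beside 35.6%, 14.8%, 15.3% and 19% of all probes. The median log2 changes of the members within that session, again in that order, were 0.04, -0.09, -0.02 and -0.04. In 1 fit of all 24 arrays with slide as a random block the counts were 14 in An-LBs, 4 in An-MBs, 1 in SBs and 6 in Ls. Neither this fit nor the counts within scan session 2 separate treatment from slide, since no slide held both groups.

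The one member that changed in SBs was A_46_P164519 (TA30301_3708), which fell there 3.05-fold (log2 change -1.61, SE 0.168, adjusted p = 0.0111, limma). Its mock values were 12.49, 12.45 and 12.10 and its MES values 10.65, 10.75 and 10.81, with no overlap. The adjusted p rose above 0.05, to no more than 0.0707 (limma), without mock SBs replicate 1 or MES SBs replicate 3, and the count in SBs was then 0, with 12 and 8 members at an unadjusted p under 0.05, beside 15.3% and 16% of all probes. The log2 changes were -0.63 in Ls, -0.27 in An-MBs and -0.46 in An-LBs, none of them called. The fall in SBs differed from the change in An-MBs by 1.34 (SE 0.38, adjusted p = 0.0473) and from that in An-LBs by 1.15 (SE 0.38, adjusted p = 0.0369, limma contrasts).

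Among the members that fell in An-LBs, A_46_P276423 (EE472022) had the fourth smallest mock score of the qualifying probes. Its mock values in An-LBs were 12.31, 11.54 and 12.09 and its MES values 10.47, 10.34 and 10.20, a 3.12-fold fall (log2 change -1.64, SE 0.237, adjusted p = 0.00294, limma). In SBs its log2 change was 0.04. In Ls and An-MBs the MES replicates scattered, from 11.11 to 12.23 and from 10.97 to 12.08.

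A_46_P095576 (EE555217) showed the largest fall, 3.27-fold in An-LBs (log2 change -1.71, SE 0.239, adjusted p = 0.00258, limma). The mock values were 11.98, 12.19 and 11.77 and the MES values 10.35, 10.59 and 9.87. In SBs its MES mean of 12.32 was close to the mock mean of 12.12. MES replicate 2 was above the mock range in Ls, at 12.13, and within it in An-MBs, at 12.43, while MES replicates 1 and 3 were below the mock range in both. The third member that fell was A_46_P251469 (EV055702). It went from mock values of 10.50, 10.49 and 10.34 to MES values of 9.03, 9.73 and 9.11 (log2 change -1.15, adjusted p = 0.00943, limma). In An-MBs its groups did not overlap either, but the change was not called (log2 change -0.87, adjusted p = 0.0755, limma).

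**Figure D3:**
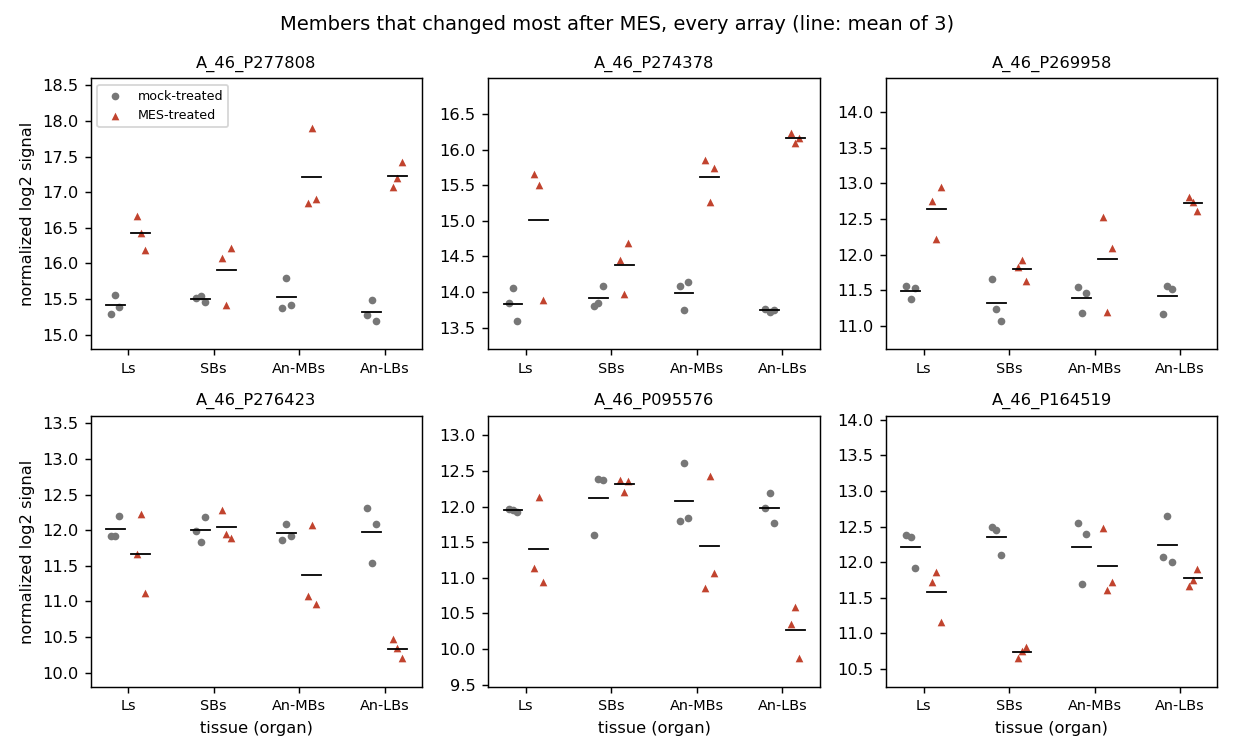
Normalized log2 signal on every array for 6 members called changed, with mock-treated plants as grey circles, MES-treated plants as red triangles and the mean of 3 as a black line. All panels span the same number of log2 units. The upper 3 members are level in mock plants and higher after MES in An-LBs. Of the lower 3, A_46_P276423 and A_46_P095576 are lower in An-LBs and A_46_P164519 in SBs.

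The other 8 members that rose in An-LBs changed by between 1.03 and 1.22 on the log2 scale, just past the threshold. They were A_46_P159474, A_46_P357990, A_46_P065451, A_46_P257344, A_46_P349420, A_46_P208624, A_46_P160194 and A_46_P310765. A_46_P159474 had the fifth smallest mock score. Its mock values in An-LBs were 13.86, 14.05 and 14.17 and its MES values 14.95, 15.16 and 15.25 (log2 change 1.10, SE 0.169, adjusted p = 0.00377, limma), while its changes in Ls, SBs and An-MBs were -0.16, 0.01 and 0.04. Of the first 5 members by mock score, 2 thus changed in An-LBs, in opposite directions. A_46_P357990 (TC100290) had higher MES means in all 4 tissues, by 1.05 in An-LBs, 0.65 in An-MBs, 0.61 in SBs and 0.71 in Ls, and only the rise in An-LBs was called (adjusted p = 0.0142, limma). Of the 15 changed members, 14 had their largest change in An-LBs. This follows largely from the calls, since 14 of the 15 were called there. Changes of 1 sign in all 4 tissues were seen for 9 of the 15, and the share over all probes was not computed.

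Some transcripts carried more than 1 probe. For 7 identifiers 2 member probes were on the list, and none of these 14 probes was called in any tissue. The pair of TA19527_3708 had log2 changes of 0.64 and 0.63 in SBs and 0.29 and 0.28 in Ls. The pair of EV165838 had MES means above mock in every tissue, with log2 changes of 0.54 and 0.59 in An-LBs. The probes of a pair share a transcript and are not independent. A further 48 probes shared an identifier with a member without being one. Of these 36 qualified by level, and their median mock score was 0.510, against 1.33 over the qualifying probes. Of the 48, 4 were called in at least 1 tissue. Among the changed members 4 had such other probes, and for 3 of these another probe was called. A_46_P159984, of the same transcript as A_46_P274378, was called in 2 tissues and had a log2 change of 2.49 in An-LBs. A_46_P047056 went with A_46_P251469 and had -1.38 there, and A_46_P030986 went with A_46_P310765 and had 1.38. The third probe of the latter transcript, A_46_P146679, had 0.79 and was not called. The 2 other probes of A_46_P065451, A_46_P177099 and A_46_P193454, had 0.84 and 0.96 and were not called either. A_46_P035176 was called, at -1.37 in An-LBs, although the member of its transcript, A_46_P233449, was not, at -0.78.

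The tissues of MES-treated plants were then compared with each other, on 12 arrays that played no part in the choice of the members. Tissue and array position were tied on these arrays too, apart from MES An-LBs replicate 2. The MES score, the highest minus the lowest of the 4 MES means, had a median of 0.540 over the members, between 0.0502 and 2.05. Over the 15539 qualifying probes its median was 1.04. It was under 1 for 174 of the 200 members (87%) and for 47.6% of the qualifying probes. It stayed within the members' mock limit for 26 members (13%) and 2.96% of the qualifying probes. Without MES An-MBs replicate 2 the medians were 0.516 and 1.03. Of the members, 184 also had all 4 MES means at 10 or more. When the same rule was applied to the MES arrays, 9 members were among the 200 probes with the smallest MES score. These 9 are 4.5% of the members, while 183 of the probes that qualified in mock plants, or 1.18% of them, were among those 200.

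**Figure D4:**
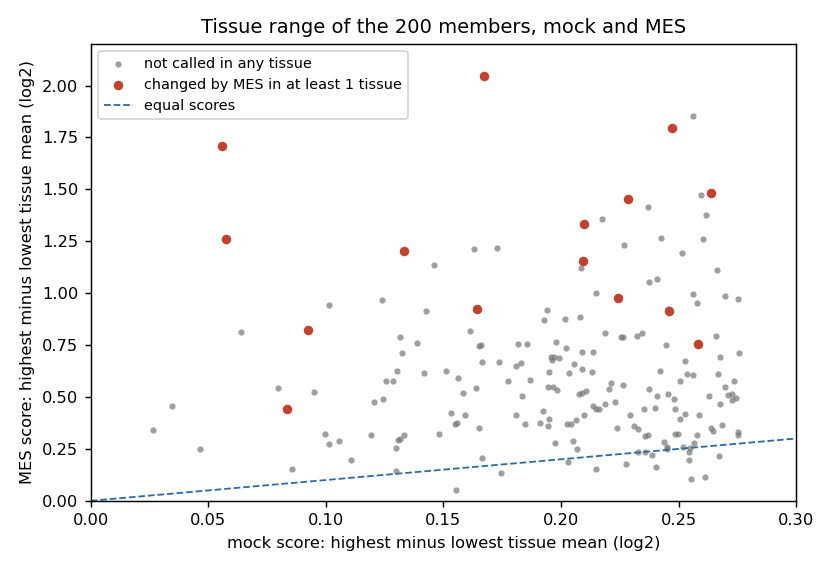
MES score against mock score of the 200 members, both the highest minus the lowest of 4 tissue means on the log2 scale. Red points are the 15 members called against mock in any tissue, and the dashed line marks equal scores. The mock axis ends near 0.276 because the rule chose on it, and most points lie above the line, with a median MES score of 0.540. Taking the smallest mock scores by itself puts points above the line, so their position is a description. Over the qualifying probes the median score was 1.33 in mock plants and 1.04 in MES-treated plants.

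By limma, 4 members differed between Ls and SBs of MES-treated plants, 2 between Ls and An-MBs, 15 between Ls and An-LBs, 2 between SBs and An-MBs and 13 between SBs and An-LBs. The shares of all probes called in these pairs were 23.9%, 19.8%, 29.3%, 10.9% and 34.1%. Between An-MBs and An-LBs 0 members were called, against 7.4% of all probes. In that pair limma gave 10 members (5%) with an unadjusted p under 0.05, beside 26.7% of all probes, and the methods' t-test called 0 members with or without adjustment. Over the 6 pairs 23 members (11.5%) differed at least once, while 52.2% of all probes and 46.3% of the qualifying probes did. With the methods' t-test at an unadjusted p of 0.001 and 2-fold the number of members was 5. Of the 23, 9 were members changed by MES and 14 were not called against mock in any tissue.

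The largest MES scores belonged to A_46_P095576 with 2.05, A_46_P247354 with 1.85, A_46_P274378 with 1.79, A_46_P276423 with 1.71 and A_46_P310765 with 1.48. A_46_P247354 (DY005926) was not called against mock in any tissue. Its MES values in Ls were 10.48, 11.18 and 10.41, against 11.70, 12.23 and 11.24 in mock plants. In An-MBs its MES values were 12.51, 12.70 and 12.41, against 11.65, 12.05 and 11.96. The MES plants thus lay below mock in Ls and above mock in An-MBs, without overlap in either. Compared with Ls, its MES mean was 1.85 higher in An-MBs (adjusted p = 0.00788), 1.48 higher in An-LBs (adjusted p = 0.0071) and 1.42 higher in SBs (adjusted p = 0.0219, limma). A_46_P310765 (EV107408) rose in An-LBs from 15.10, 15.24 and 14.78 to 16.22, 16.17 and 16.33 (adjusted p = 0.0032, limma). Its MES values in An-MBs were 15.22, 13.51 and 15.54, with the low one on replicate 2.

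Whether the MES effect itself differed between tissues was tested by contrasts in 1 limma fit of all 24 arrays, at an adjusted p under 0.05 with no fold threshold. Members called were 5 between Ls and An-MBs, 26 between Ls and An-LBs, 5 between SBs and An-MBs, 20 between SBs and An-LBs and 1 between An-MBs and An-LBs. All probes were called at 12.4%, 28.9%, 5.01%, 21.2% and 14.2%. Between Ls and SBs 0 members were called against 3.78% of all probes, with 16 (8%) at an unadjusted p under 0.05, beside 20% of all probes. In all, 39 members (19.5%) differed in at least 1 pair, while 41.2% of all probes and 39.4% of the qualifying probes did. The mock means that chose the members are part of each contrast, so a low share is not independent of the choice. Of the 15 changed members, 10 were among the 39. The count depended on single arrays. It was 59 without MES An-MBs replicate 2, 25 without MES An-LBs replicate 3 and 23 without mock An-LBs replicate 1. Within scan session 2, where 2 mock arrays of each tissue remained, it was 4.

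Members that stayed level in both groups are the other side of these data. The range over the 8 group means was under 0.5 for 60 members and under 1 for 166, and its median was 0.666. On single arrays, the range over all 24 was under 1 for 62 members, with a median of 1.17 and a highest value of 4.04. The smallest ranges over the 8 group means were those of A_46_P024491 (ES906401) with 0.155, A_46_P255849 (ES904179) with 0.170, A_46_P263444 (EE455361) with 0.197, A_46_P268583 (EE461528) with 0.207 and A_46_P274063 (EE469010) with 0.252. The mock means of A_46_P024491 were 12.39 for Ls, 12.52 for SBs, 12.42 for An-MBs and 12.51 for An-LBs. Its MES means were 12.39, 12.50, 12.36 and 12.41 in the same order. Its values overlapped between MES and mock in every tissue, and over all 24 arrays they spanned 0.671. A_46_P268583 spanned 0.527 over the 24 arrays, from 12.12 to 12.65. A_46_P263444 spanned 0.582, and its lowest value was 11.32 on MES An-MBs replicate 2. These 5 were picked for a small range in the same arrays, so the ranges are a description. Their log2 changes in the 4 tissues lay between -0.17 and 0.18, with SEs from 0.142 to 0.286, so small changes were not detectable at this number of arrays.

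**Figure D5:**
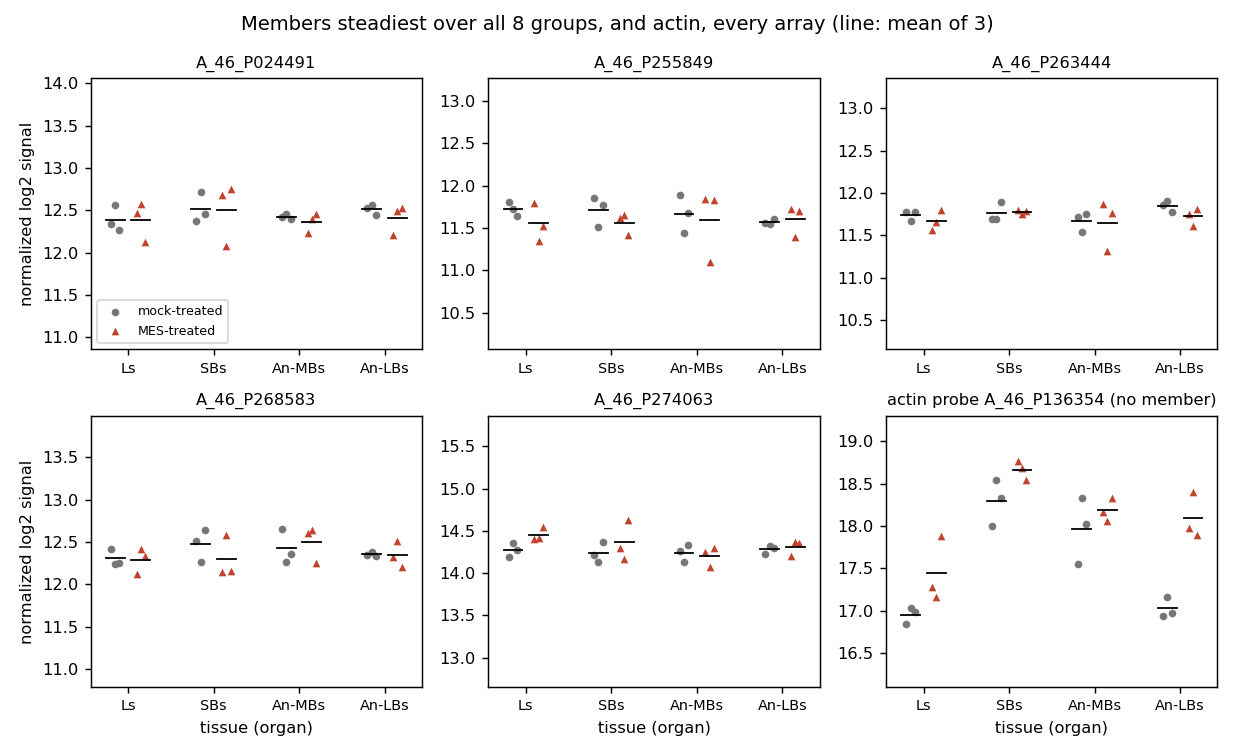
Normalized log2 signal on every array for the 5 members with the smallest range over the 8 group means and for an actin probe that is no member. Grey circles are mock-treated plants, red triangles MES-treated plants and black lines means of 3, and every panel spans the same number of log2 units. The 5 members span at most 0.792 over all arrays, while the actin probe differs between tissues and is higher after MES in An-LBs.

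For comparison, the actin transcript AF111812, which encodes a cytoskeletal protein and served as the RT-qPCR reference of the study, was not among the members. Its 3 probes, A_46_P007506, A_46_P136354 and A_46_P250229, had mock scores of 1.26, 1.34 and 1.29, close to the median of the qualifying probes, and ranks of 7170, 7855 and 7493. In mock plants A_46_P136354 had a mean log2 signal of 17.02 ± 0.119 in An-LBs, 17.97 ± 0.395 in An-MBs, 18.29 ± 0.275 in SBs and 16.95 ± 0.102 in Ls (SD, n = 3). In An-LBs its mock values were 16.94, 17.16 and 16.98 and its MES values 17.98, 18.41 and 17.90, a log2 change of 1.07 that was called (adjusted p = 0.00684, limma). The other 2 probes changed there by 0.86 and 0.90 (adjusted p = 0.00488 and 0.00761, limma), short of the fold threshold. In Ls, SBs and An-MBs none of the 3 was called, with changes between 0.15 and 0.51. The probes measure 1 transcript, and the values of A_46_P136354 after MES were above mock in An-LBs on all 3 arrays.

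The study's tables pair 2 further probes with genes used as RT-qPCR references in *Arabidopsis*, and neither was a member. A_46_P135809 (UBC9, a ubiquitin-conjugating enzyme of the protein degradation pathway) had a mock score of 0.811 and rose by 1.09 in An-LBs (adjusted p = 0.00307, limma). A_46_P243244, paired with the locus AT4G33380, had a mock score of 1.57 and fell in both anther stages. It fell by 1.17 at the middle stage (adjusted p = 0.0293) and by 1.66 at the late stage (adjusted p = 0.000472, limma). Both come from a list of transcripts the study selected as changed in these samples, so that their changes are no independent evidence.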

How the data were processed

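Transcripts were measured on 24 one-colour (Cy3) arrays of 8 groups with 3 biological replicates each. The intensity values of the spots come from the authors' use of Feature Extraction (version 9.1 per the processing notes and 10.7.3.1 per the file headers), which subtracted background and removed spatial trends. The log2 values of the authors' table, on which the members were chosen, had been normalized by quantiles in GeneSpring. The members and lists were chosen with earlier results of these data known.

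Intensities were averaged over the spots of a probe (no member had more than 1 spot), then put on the log2 scale and quantile normalized as 1 set of 24 arrays, without the 1417 control spots. The values differed from the authors' by a median of 6.54e-07, with a largest difference of 2.48. Spots that were uneven or outlying had no weight, which concerned no member. The tests were two-sided and used limma 3.58.1 under R 4.3.3. Each was fitted on its own 6 arrays and covered probes that at least 3 of these arrays marked as well above background. Named members are the 5 of smallest mock score, those at the limit, the largest rises and falls per tissue, the up to 6 changed in most tissues, the 5 of smallest range over the 8 groups, the 5 of largest MES score and the 3 of largest difference of the MES effect. Other changed members and the pairs of probes were named after their values were seen. Reference genes were looked up in the study's tables.

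Members were also chosen with a least mock mean of 9 or 11, as 100 or 400 probes, on values shifted to the 75th percentile and on the SD over the 12 mock arrays. Other alternatives were that shift, normexp with an offset of 50, the authors' values, filters on dim probes, weights, fold threshold, the methods' t-test, blocks for replicate number and slide, and arrays left out. The settings within scan session 2 and without 2 arrays together were added after the data were seen. Only in Ls did all correlations between equally numbered mock and MES arrays exceed 0.1, over 27366 probes. In simulated data with the spreads of all probes, limma recovered 0% of log2 changes of 1 and 40% of log2 changes of 2 in Ls, over 32493 probes. In An-LBs it recovered 6% and 32% over 35098 probes. No fold threshold was applied, and 50 probes were changed at each size. In the real An-LBs fit 42.3% of all probes passed the adjusted p alone. An adjusted p is stricter where fewer probes change, so these rates do not apply to the tests of the members.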

Additional observations from a re-analysis of the deposited data

Results flagged for a closer look

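Among the members named above by probe or as a pair of 1 transcript, 14 had an MES effect that differed between tissues, by the contrasts of the limma fit over all 24 arrays. Each is given for the pair with the largest called difference, as the log2 change in the first tissue minus that in the second. A_46_P274378 rose more in An-LBs than in SBs, by 1.96 (SE 0.46, adjusted p = 0.00481). The value for A_46_P095576 was -1.91 in An-LBs against SBs (SE 0.52, adjusted p = 0.0139). A_46_P247354 had 1.69 in An-MBs against Ls (SE 0.37, adjusted p = 0.00556), where the MES plants lay on opposite sides of mock. For A_46_P276423 it was -1.68 in An-LBs against SBs (SE 0.40, adjusted p = 0.00553), and for A_46_P277808 it was 1.51 in the same pair (SE 0.35, adjusted p = 0.00454). A_46_P257344 had 1.37 in An-LBs against SBs (SE 0.32, adjusted p = 0.0049). A_46_P164519 had 1.34 in An-MBs against SBs (SE 0.38, adjusted p = 0.0473). A_46_P159474 had 1.26 in An-LBs against Ls (SE 0.43, adjusted p = 0.0343). The value for A_46_P251469 was -0.96 in An-LBs against Ls (SE 0.29, adjusted p = 0.0195), and for A_46_P160194 it was 0.86 in the same pair (SE 0.29, adjusted p = 0.0302). The pair of TA19527_3708, A_46_P211029 and A_46_P131459, had -0.76 and -0.75 in An-MBs against SBs (SE 0.19 for both, adjusted p = 0.0287 and 0.0239). A_46_P065451 had 0.73 in An-LBs against SBs (SE 0.22, adjusted p = 0.0237), and A_46_P233449 had -0.69 in that pair (SE 0.18, adjusted p = 0.0115). The changes against mock that named most of these probes come from the same arrays as the contrasts. The mock means in each contrast are also those that chose the members.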

How the results depend on the processing

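No called change of a member reversed its direction under any alternative. In Ls, against 2 members, the count was 1 after a shift to the 75th percentile, 0 with no filter on dim probes, 0 with the replicate block, 0 with either form of the methods' t-test, 4 for members with a least mock mean of 9, 4 among 400 probes, 6 in 1 fit of all 24 arrays with or without slide as a random block and 0 within scan session 2. In SBs, against 1, it was 0 by the methods' t-test with adjusted p, 2 with no fold threshold, 3 among 400 probes, 0 for members chosen on the SD over the mock arrays and 0 within scan session 2. In An-MBs, against 2, it was 1 after the shift, 1 with no filter, 0 by the methods' t-test at 0.001 and 1 with adjusted p, 0 with mock replicates 1 and 2 averaged, 1 among 100 probes, 4 among 400, 4 in 1 fit of all arrays with or without the slide block and 0 within scan session 2. In An-LBs, against 14, it was 5 by the methods' t-test at 0.001, 42 with no fold threshold, 8 among 100 probes, 28 among 400, 8 for members chosen on the SD and 9 within scan session 2. For at least 1 tissue, against 15, the same 6 settings gave 6, 44, 9, 29, 8 and 9. Differences between tissues of MES-treated plants, against 23, were 5 at 0.001, 59 with no fold threshold, 10 among 100 probes and 41 among 400. Differences of the MES effect, against 39, were 20 among 100 probes, 70 among 400 and 4 within scan session 2. The numbers with 100 and 400 probes follow from the size of the set. For the others the cause was not tested.

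With 1 array left out, counts ran from 0 to 5 in Ls, 0 to 1 in SBs, 0 to 3 in An-MBs, 12 to 15 in An-LBs, 13 to 18 for at least 1 tissue, 16 to 27 between tissues of MES-treated plants and 23 to 59 for the MES effect. With the replicate block the last 2 counts were 20 and 28, and it left 14 in An-LBs, 2 in An-MBs and 1 in SBs. The choice of members depended on the processing as well: 100 of the 200 were shared with a choice on values shifted to the 75th percentile and 116 with a choice on the SD over the mock arrays. With 3 arrays per group, a member that was not called may still have changed. How often such changes were missed in these fits was not tested, since the simulated data held far fewer changed probes.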
